A study of Mus musculus with 6 samples.

Results

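The sterol and fatty acid synthesis genes are the enzymes that turn acetyl-CoA into cholesterol or into long unsaturated fatty acids, together with the regulators that set their transcription. They were picked by symbol from general knowledge of the pathway, with earlier results of these data known. The group holds 31 of the 24982 genes listed in each library. Of these, 18 are enzymes of the sterol branch, 8 are enzymes of the fatty acid branch and 5 are regulators or sterol carriers. RNA was sequenced from keratinocytes of neonatal skin of the C57BL/6 strain of mouse, with no treatment, in 3 libraries of a line raised in the low-calcium medium KSFM-Ca2+ and 3 libraries of a line in the defined medium DKSFM. The DKSFM line descends from the KSFM-Ca2+ line by adaptation to its medium, which holds more calcium, so medium, calcium, adaptation and line cannot be told apart. The sources used here do not say whether replicates were separate cultures, so p-values measure the spread between these libraries, which may be technical. The files of KSFM-Ca2+ replicate 3 and of all 3 DKSFM replicates carry the word combined, whose meaning was not given in the sources used here. The deposited value is the read coverage per base of each gene, written in steps of 0.1, and the listed coverage summed to 1601676, 1238411 and 1057750.5 in the KSFM-Ca2+ replicates 1 to 3 and to 1174348, 1239438 and 1170675 in the DKSFM replicates 1 to 3. Coverage was normalized between libraries, and values below are normalized coverage in the order of replicates 1 to 3, or mean ± SD of 3 libraries. Because coverage is per base, levels can be compared between genes.

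Sterols and fatty acids share a starting unit, acetyl-CoA, which is either condensed toward mevalonate, squalene, lanosterol and cholesterol or carboxylated and joined into fatty acid chains that are then elongated and desaturated. Transcription of both branches is driven by the sterol regulatory element-binding proteins (SREBPs), which Scap escorts out of the endoplasmic reticulum when sterols are scarce and which Insig proteins hold back when sterols are plentiful. In epidermis, keratinocytes make cholesterol, fatty acids and ceramides for the lipid layers of the skin barrier.

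The keratinocyte label was checked against 7 markers, all of which were present in every library. Their summed coverage was 17785, 18196 and 17921 in the KSFM-Ca2+ libraries and 43861, 39973 and 44217 in the DKSFM libraries, with *Krt14* and *Krt5* the most abundant. The list was not of 1 direction, and *Itgb4* (limma, log2 fold change -0.74, adjusted p = 4.55e-07) and *Cdh1* (limma, log2 fold change -0.13, adjusted p = 0.00343) were lower in the DKSFM cells. For *Cdh1* the authors reported the other direction, with increased expression in the DKSFM-adapted cells by qPCR. Why the measures differ was not tested. Cells that specialize in lipid synthesis were looked for through their own markers. Of 9 sebocyte markers, 5 were listed at 0 in every library (*Pparg*, *Awat1*, *Mc5r*, *Plin5* and *Cidea*). The sebocyte list summed to 203, 201 and 216 in the KSFM-Ca2+ libraries and to 131, 133 and 128 in the DKSFM libraries, nearly all of it from *Plin2*, which encodes a coat protein of lipid droplets found in many cell types. *Prdm1*, of the same list, differed the other way, with means of 0.687 in the KSFM-Ca2+ and 3.77 in the DKSFM libraries (limma, log2 fold change 2.30, adjusted p = 1.39e-06). Of 6 adipocyte markers, 4 were at 0 in every library (*Plin1*, *Lep*, *Cidec* and *Retn*). That list summed to 8.22, 7.88 and 5.12 in the KSFM-Ca2+ libraries and 0.642, 1.11 and 0.107 in the DKSFM libraries, where *Fabp4* was the most abundant gene. *Col1a1*, *Col1a2*, *Col3a1*, *Dcn* and *Lum*, 5 of 6 fibroblast markers, were also at 0, and the sums of that list were 1.15, 0.898 and 1.31 against 2.36, 2.12 and 2.25, all from *Pdgfra*. The 4 melanocyte markers, of which *Tyr* and *Dct* were at 0, summed to 0.384, 0.898 and 0.714 against 0.321, 0.504 and 0.214, with *Pmel* the most abundant. The 3 endothelial markers, of which *Cdh5* was at 0, summed to 2.69, 2.79 and 3.09 against 8.14, 8.26 and 7.16, mostly *Pecam1*. The 4 immune markers, of which *Cd3e* was at 0, summed to 10.9, 11.3 and 12.6 against 13.7, 19.0 and 20.7, mostly *Cd68*. *Cd68*, with 11.6 ± 0.916 in the KSFM-Ca2+ libraries, was close there to the keratinocyte marker *Krt15*, which had 13.7 ± 3.69. In the DKSFM libraries *Krt15* had 395 ± 12.6 and *Cd68* 17.8 ± 3.64. It is the summed markers of the other cell types that were small beside the keratinocyte sums in both lines, with *Plin2* the most abundant of these other markers. What part, if any, their differences had in the values below was not tested.

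Most of the 31 genes differed between the lines, more of them lower in the DKSFM cells than higher, and by less than 2-fold in all but 3. All 31 passed the filter on low coverage, as did 12450 genes in all, and every member was above the filter level in every library. By limma with Benjamini-Hochberg adjustment over the 12450 genes, at an adjusted p under 0.01, 8 members (25.8%) were higher in the DKSFM cells and 18 (58.1%) were lower, where 35.5% of all tested genes were higher and 37.0% were lower. Past that threshold and 2-fold, *Tm7sf2* was higher (13.3% of all tested genes were) and *Hsd17b7* and *Fads1* were lower (10.5% of all tested genes were). The libraries of the lines did not overlap in 26 members (83.9%), as in 83.2% of all tested genes, a share so near to it that it says nothing about these genes. The median log2 fold change, DKSFM over KSFM-Ca2+, was -0.20 over the members and 0.00016 over all tested genes. Fold changes are on the scale of log2(normalized coverage + 0.1), which understates the change of genes with low coverage. In bulk samples such as these, fewer cells of a type and less RNA per cell cannot be told apart. Together the 31 genes took 0.408%, 0.407% and 0.401% of the normalized coverage of the KSFM-Ca2+ libraries and 0.351%, 0.338% and 0.361% of that of the DKSFM libraries. The plot of coverage in each library shows the levels of all 31 genes. *Scd2* was highest in both lines, and the lowest gene was *Tm7sf2* in the KSFM-Ca2+ libraries and *Acaca* in the DKSFM libraries.

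**Figure D1:**
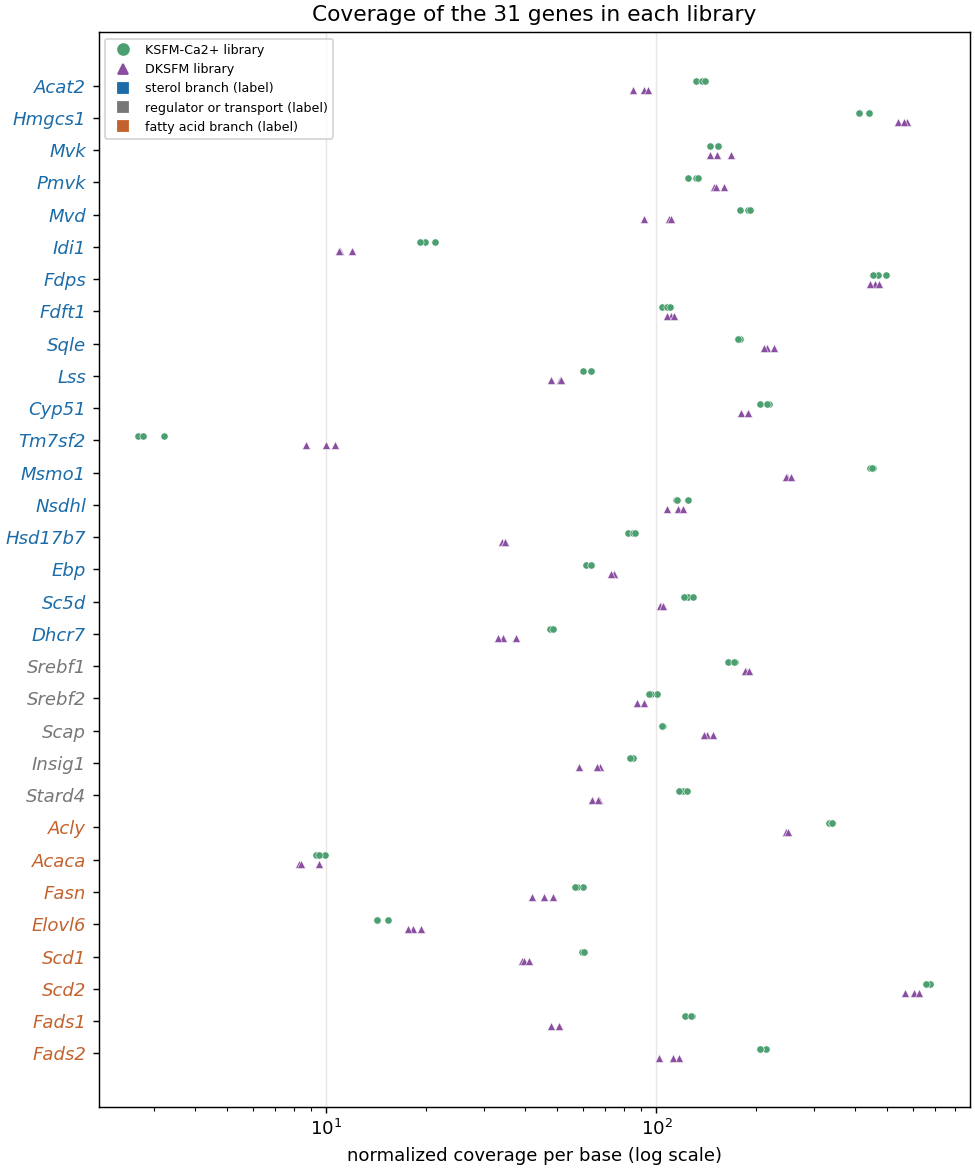
Normalized coverage per base (log scale) of the 31 genes in each of the 6 libraries, with KSFM-Ca2+ as circles, DKSFM as triangles and gene names coloured by branch. *Tm7sf2* lies lowest in the KSFM-Ca2+ libraries, with 2.69, 2.79 and 3.21, and *Scd2* highest in both lines.

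The branches were then set side by side. In the sterol branch 5 of 18 genes were higher in the DKSFM cells, 9 were lower and 4 did not pass the threshold (27.8% higher and 50% lower, beside 35.5% and 37.0% of all tested genes), with a median log2 fold change of -0.12. In the fatty acid branch 1 of 8 genes was higher, 6 were lower and 1 did not pass (12.5% higher and 75.0% lower, beside the same shares of all tested genes), with a median of -0.40. The sterol median moved to -0.06 with quantile normalization, under which the median over all tested genes was -0.04. Summed over its 18 genes, the sterol branch had a coverage of 2951, 2974 and 3004 in the KSFM-Ca2+ libraries and 2737, 2623 and 2797 in the DKSFM libraries, or 2976 ± 26.9 against 2719 ± 88.5. The 8 fatty acid genes summed to 1494, 1483 and 1472 in the KSFM-Ca2+ libraries and 1127, 1069.7 and 1158 in the DKSFM libraries, or 1483 ± 10.96 against 1118 ± 44.6. In both branches every KSFM-Ca2+ library lay above every DKSFM library, and the sums are weighted toward the most abundant genes. In the sterol branch *Msmo1* alone fell from 448 ± 5.15 to 251 ± 4.83, and without it the sterol sums of the lines would overlap. The 5 regulators and carriers summed to 583, 573 and 571 against 550.3, 533 and 563, again without overlap. Among them the carrier *Stard4* fell from 120.2 ± 3.35 to 65.6 ± 1.67, by more than the sum did. The sum of the others therefore did not fall. Whether the branches differed from each other was not tested, because their genes were chosen with results of these libraries known.

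**Figure D2:**
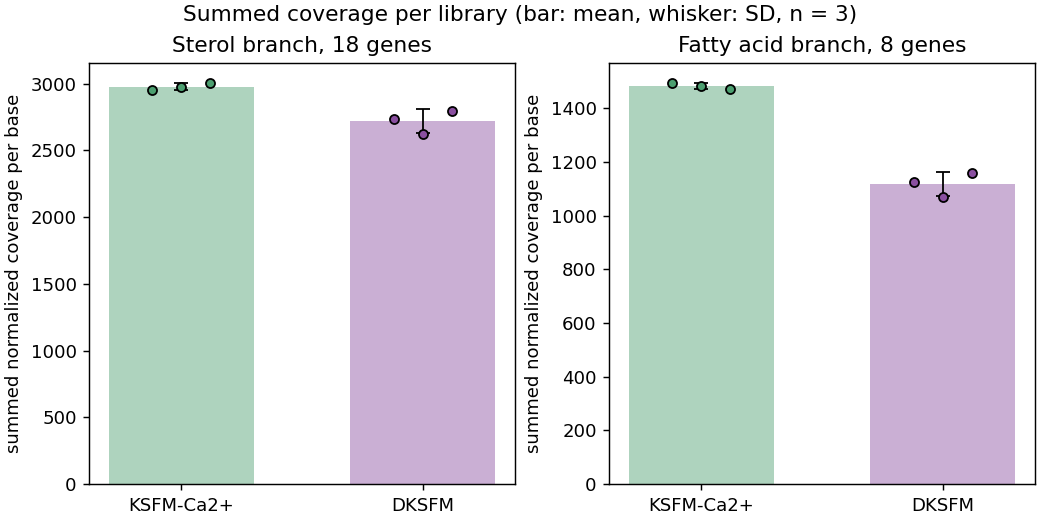
Summed normalized coverage per base of the 18 sterol genes (left) and the 8 fatty acid genes (right) in each library. Bars are means of 3 libraries, whiskers are the SD and dots are the libraries, and in both panels the KSFM-Ca2+ dots lie above the DKSFM dots. Without *Msmo1* the sterol dots of the lines would overlap.

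**Figure D3:**
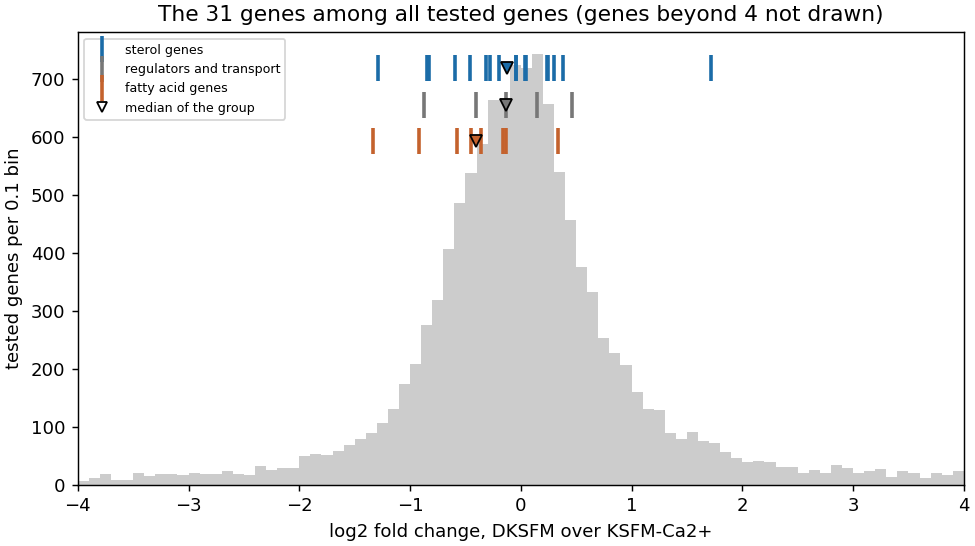
Histogram of the log2 fold changes of the tested genes in bins of 0.1, with a tick for each sterol, regulator and fatty acid gene and a triangle at each group's median. The fatty acid median of -0.40 lies farther below 0 than the sterol median of -0.12, and all but 3 ticks lie within 2-fold of no difference.

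Promoters are shown for the genes whose differences the sterol results turn on. These are *Tm7sf2* and *Lbr*, which encode enzymes of the same step and differed in opposite directions, *Hsd17b7*, the sterol gene with the largest fall, and *Hmgcs1*, the gene of the group whose promoter held the SREBP motif. Sequences are from RefSeq (GRCm38.p6), run from 250 bases before to 50 bases after the gene start annotated there, and are written 5′ to 3′ on the gene's strand. Gene positions given below are from GENCODE instead. The promoters of *Tm7sf2* and *Lbr* lie inside the GENCODE bounds of these genes, so their starts differ between the annotations. They lie at chr19:6067801-6068100 (minus strand), chr1:181842352-181842651 (minus strand), chr1:169969156-169969455 (minus strand) and chr13:119690101-119690400 (plus strand). Capitals mark matches on either strand to the SREBP motif TCACNCCAC, the NF-Y motif CCAAT or the Sp1 motif GGGCGG.
Tm7sf2: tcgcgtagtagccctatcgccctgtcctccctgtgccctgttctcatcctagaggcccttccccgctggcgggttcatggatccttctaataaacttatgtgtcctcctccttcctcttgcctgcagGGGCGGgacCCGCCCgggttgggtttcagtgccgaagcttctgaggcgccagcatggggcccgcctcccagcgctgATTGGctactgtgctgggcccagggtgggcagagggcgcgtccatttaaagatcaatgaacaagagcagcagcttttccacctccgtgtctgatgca
Lbr: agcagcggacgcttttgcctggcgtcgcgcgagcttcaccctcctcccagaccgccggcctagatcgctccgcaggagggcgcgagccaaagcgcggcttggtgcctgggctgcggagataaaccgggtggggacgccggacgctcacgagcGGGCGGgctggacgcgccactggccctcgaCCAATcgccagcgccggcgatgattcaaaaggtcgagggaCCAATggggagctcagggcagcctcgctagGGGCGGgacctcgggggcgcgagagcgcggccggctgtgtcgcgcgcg
Hsd17b7: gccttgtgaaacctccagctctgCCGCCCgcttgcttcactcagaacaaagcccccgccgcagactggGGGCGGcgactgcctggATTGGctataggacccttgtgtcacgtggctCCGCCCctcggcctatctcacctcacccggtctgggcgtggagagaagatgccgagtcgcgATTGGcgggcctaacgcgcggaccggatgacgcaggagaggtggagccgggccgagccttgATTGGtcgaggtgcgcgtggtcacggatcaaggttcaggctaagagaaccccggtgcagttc
Hmgcs1: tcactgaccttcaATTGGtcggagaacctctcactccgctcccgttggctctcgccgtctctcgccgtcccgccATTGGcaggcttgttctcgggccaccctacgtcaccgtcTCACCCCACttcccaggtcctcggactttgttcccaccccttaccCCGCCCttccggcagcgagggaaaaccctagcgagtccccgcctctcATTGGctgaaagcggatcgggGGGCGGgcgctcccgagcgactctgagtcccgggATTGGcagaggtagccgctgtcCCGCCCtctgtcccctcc

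A promoter was found for 24 of the 31 genes, 30 promoters in all, and a gene was counted once if any of its promoters held a motif. CCAAT was present in 19 of the 24 genes (79.2%) and in 41.1% of 27025 genes of the table. GGGCGG was present in 20 of the 24 (83.3%) and in 38.2% of all genes. TCACNCCAC was present in *Hmgcs1* alone, 1 of the 24 (4.17%), and in 1.44% of all genes. In the promoters of the group no match of a motif shared a base with a match of another motif. *Hmgcs1* rose, *Hsd17b7* fell, and both promoters held CCAAT and GGGCGG, as did those of *Tm7sf2* and *Lbr*. A match is a run of letters and not a measured binding site.

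The plot of differences in pathway order shows that neighbouring steps did not always share a direction, and that the chromosome windows holding the genes had medians of their own. These windows are fixed stretches of 20 Mb counted from the start of each chromosome. A gene can therefore lie at the edge of its window, and the last window of a chromosome can be shorter.

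**Figure D4:**
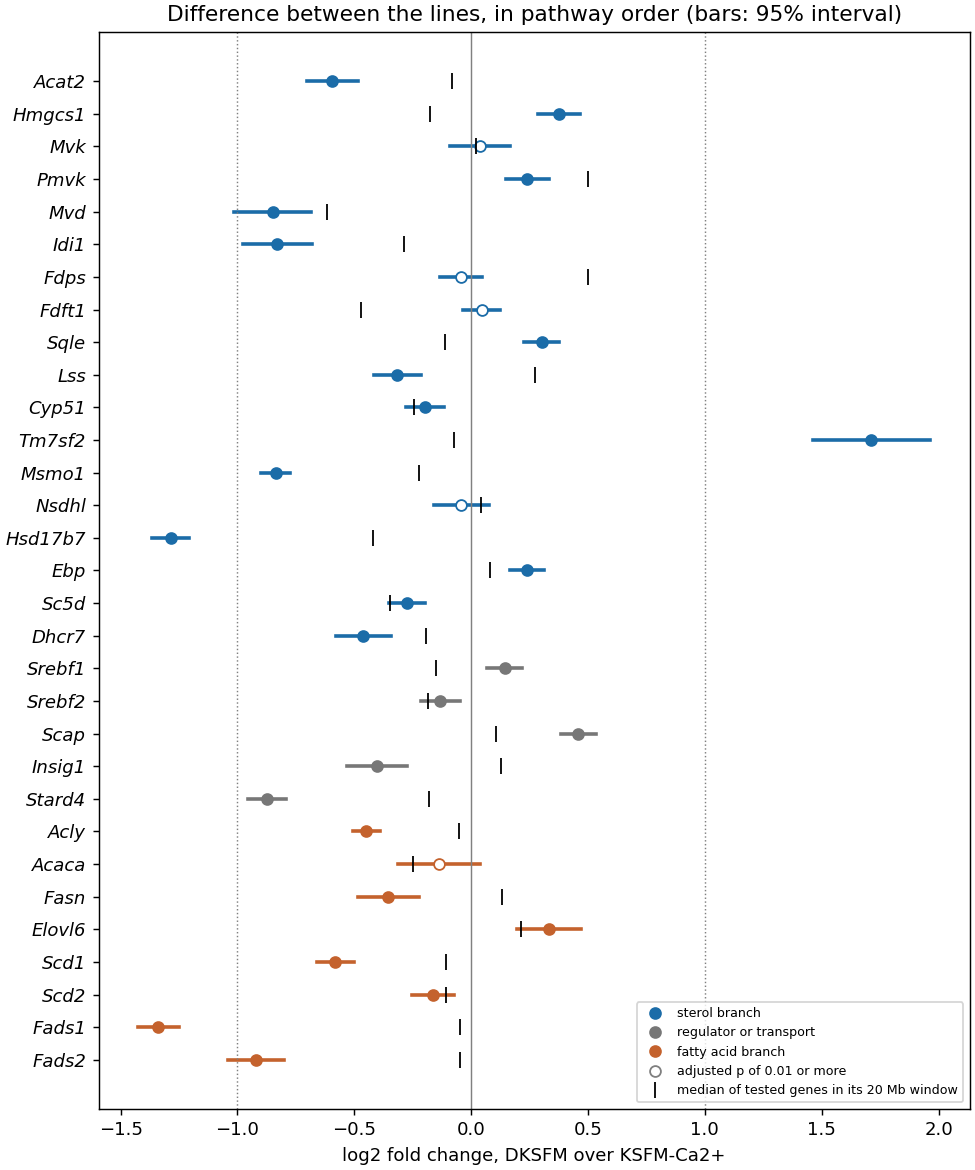
Log2 fold change, DKSFM over KSFM-Ca2+, of each gene in pathway order, with the 95% interval from limma. Open circles mark the 5 genes with an adjusted p of 0.01 or more, short black lines the median of the tested genes in its 20 Mb window, and dotted lines 2-fold, which *Tm7sf2*, *Hsd17b7* and *Fads1* pass.

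The early steps, from acetyl-CoA to farnesyl diphosphate, included genes of either direction. Of 7 genes, 2 were higher in the DKSFM cells (*Hmgcs1* and *Pmvk*), 3 were lower (*Acat2*, *Mvd* and *Idi1*) and 2 did not pass (*Mvk* and *Fdps*), with a median of -0.04. These shares, 28.6% higher and 42.9% lower, lie near the 35.5% and 37.0% of all tested genes. *Hmgcs1* (chr13:119690379-119708260), which encodes the synthase that joins acetyl-CoA to acetoacetyl-CoA, had a normalized coverage of 442, 440.4 and 409.9 in the KSFM-Ca2+ libraries and 575, 539 and 563 in the DKSFM libraries. Its means were 431 ± 17.9 and 559 ± 18.1 (limma, log2 fold change 0.38, adjusted p = 3.33e-05, standard error 0.04). Every DKSFM library lay above every KSFM-Ca2+ library, and the gene ranked above 96.0% of tested genes in the KSFM-Ca2+ cells and 97.2% in the DKSFM cells. *Acat2* (chr17:12942890-12960747), whose product makes the acetoacetyl-CoA that *Hmgcs1* uses, differed the other way, with 136 ± 4.49 in the KSFM-Ca2+ libraries and 90.3 ± 5.02 in the DKSFM libraries (limma, log2 fold change -0.59, adjusted p = 6.36e-06). The 2 opening steps thus differed in opposite directions. The kinases that follow were closer between the lines. *Mvk*, mevalonate kinase (chr5:114444269-114460591), had 151 ± 4.82 in the KSFM-Ca2+ libraries and 155 ± 11.9 in the DKSFM libraries (limma, log2 fold change 0.04, adjusted p = 0.542), and its libraries overlapped. *Pmvk*, phosphomevalonate kinase (chr3:89454541-89469013), had 130.1 ± 4.74 in the KSFM-Ca2+ libraries and 154 ± 6.0004 in the DKSFM libraries (limma, log2 fold change 0.24, adjusted p = 6.47e-04). The *Pmvk* difference was smaller than the median of 0.50 over the 225 tested genes of its 20 Mb window of chromosome 3, a window that also holds *Fdps*.

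*Mvd* and *Idi1* fell by similar amounts. *Mvd* (chr8:122433601-122443422), which encodes the decarboxylase that makes isopentenyl diphosphate, had 178, 189 and 192 in the KSFM-Ca2+ libraries and 109, 91.8 and 111 in the DKSFM libraries. Its means were 187 ± 7.28 and 104 ± 10.5 (limma, log2 fold change -0.85, adjusted p = 9.06e-06, standard error 0.07), and the 82 tested genes of its chromosome 8 window had a median log2 fold change of -0.62. *Idi1* (chr13:8885501-8892451), which encodes the isomerase that acts on isopentenyl diphosphate, had 19.8, 21.3 and 19.3 in the KSFM-Ca2+ libraries and 11.03, 10.9 and 11.97 in the DKSFM libraries. Its means were 20.1 ± 1.07 and 11.3 ± 0.592 (limma, log2 fold change -0.83, adjusted p = 5.54e-06, standard error 0.06), beside a window median of -0.29 on chromosome 13. In both genes the lines did not overlap, and *Idi1* was among the least covered genes of the group. *Fdps* (chr3:89093588-89101959), which encodes farnesyl diphosphate synthase, was among the most abundant, with 473 ± 20.3 in the KSFM-Ca2+ libraries and 459 ± 13.8 in the DKSFM libraries (limma, log2 fold change -0.04, adjusted p = 0.321) and overlapping libraries.

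Farnesyl diphosphate is committed to sterols by joining a pair of molecules into squalene, which is then oxidized and folded into lanosterol. The 3 genes of these steps were 1 higher, 1 lower and 1 not past the threshold, near the shares of all tested genes (35.5% higher and 37.0% lower), which says nothing about these steps. *Sqle* (chr15:59315077-59331192) encodes squalene epoxidase, a slow step of the pathway, and had 176, 179 and 177 in the KSFM-Ca2+ libraries and 217, 212 and 227 in the DKSFM libraries. Its means were 177 ± 1.45 and 218 ± 7.53 (limma, log2 fold change 0.30, adjusted p = 3.78e-05, standard error 0.03), so that it rose in the DKSFM cells with no overlap between the lines. *Lss* (chr10:76531588-76557138), the cyclase that makes lanosterol, fell from 62.3 ± 2.08 in the KSFM-Ca2+ libraries to 50.02 ± 1.96 in the DKSFM libraries (limma, log2 fold change -0.32, adjusted p = 1.89e-04), while the 120 tested genes of its window had a median of 0.27. *Fdft1* (chr14:63145150-63179578), squalene synthase, had 107 ± 3.17 in the KSFM-Ca2+ libraries and 110.5 ± 2.73 in the DKSFM libraries (limma, log2 fold change 0.04, adjusted p = 0.260), and its libraries overlapped. The *Fdft1* window on chromosome 14 had a median of -0.47 over 102 genes.

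After lanosterol, 8 enzymes remove methyl groups and move or reduce double bonds until cholesterol is formed, and here the differences were widest. Among them 2 genes were higher in the DKSFM cells (*Tm7sf2* and *Ebp*), 5 were lower and *Nsdhl* did not pass, with log2 fold changes from -1.29 to 1.71 and a median of -0.24 (25% higher and 62.5% lower, beside 35.5% and 37.0% of all tested genes). *Tm7sf2* (chr19:6062821-6068373), which encodes a sterol reductase, had 2.69, 2.79 and 3.21 in the KSFM-Ca2+ libraries and 9.96, 8.67 and 10.6 in the DKSFM libraries. Its means were 2.90 ± 0.277 and 9.74 ± 0.978, a 3.28-fold higher value in the DKSFM cells (limma, log2 fold change 1.71, adjusted p = 1.67e-06, standard error 0.11). Its DKSFM libraries all lay above its KSFM-Ca2+ libraries, yet it stayed a weakly covered gene, above 17.2% of tested genes in the KSFM-Ca2+ cells and 30.5% in the DKSFM cells. In the GENCODE annotation *Tm7sf2* shares 532 bases with *Vps51* on the same strand. The authors used RefSeq genes, in which the overlap was not examined, so how far it touches the coverage of *Tm7sf2* is uncertain. *Vps51* itself had a coverage of 23.1 in the KSFM-Ca2+ cells and 21.8 in the DKSFM cells (log2 fold change -0.08). *Lbr* (chr1:181815335-181843046), which encodes the lamin B receptor and catalyses the same sterol reduction, had 78.6, 76.99 and 75.7 in the KSFM-Ca2+ libraries and 35.5, 35.9 and 37.8 in the DKSFM libraries. Its means were 77.1 ± 1.44 and 36.4 ± 1.24 (limma, log2 fold change -1.08, adjusted p = 6.69e-08, standard error 0.04). In the KSFM-Ca2+ cells *Lbr* was far above *Tm7sf2*, and in the DKSFM cells the gap between these reductases was smaller, with *Lbr* lower and *Tm7sf2* higher than in the KSFM-Ca2+ cells.

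*Hsd17b7* (chr1:169949535-169969241), which encodes the ketosteroid reductase of sterol demethylation, had 81.9, 84.8 and 85.9 in the KSFM-Ca2+ libraries and 33.9, 34.7 and 34.7 in the DKSFM libraries. Its means were 84.2 ± 2.09 and 34.5 ± 0.445, a 2.44-fold lower value in the DKSFM cells (limma, log2 fold change -1.29, adjusted p = 1.68e-08, standard error 0.03). The lines were far apart and its replicates close together, and its fall went beyond the median of -0.42 over 108 tested genes of its chromosome 1 window. *Msmo1* (chr8:64718139-64733792), the methyl sterol oxidase of the same demethylation, was far more abundant, with 453, 442 and 448 in the KSFM-Ca2+ libraries and 249, 247 and 256 in the DKSFM libraries. Its means were 448 ± 5.15 and 251 ± 4.83 (limma, log2 fold change -0.84, adjusted p = 3.73e-08, standard error 0.03). *Nsdhl* (chrX:72918557-72958514), the dehydrogenase that acts between *Msmo1* and *Hsd17b7*, had 118 ± 5.54 in the KSFM-Ca2+ libraries and 115 ± 6.45 in the DKSFM libraries (limma, log2 fold change -0.04, adjusted p = 0.468). Of the enzymes of this demethylation complex, *Msmo1* and *Hsd17b7* thus fell without overlap while the *Nsdhl* libraries of the lines overlapped. *Cyp51* (chr5:4081145-4104746), the demethylase that opens this stretch, fell from 214 ± 6.92 to 186 ± 5.23 (limma, log2 fold change -0.20, adjusted p = 8.66e-04). With quantile normalization *Cyp51* no longer passed the threshold (log2 fold change -0.13, adjusted p = 0.0121 in limma). *Sc5d* (chr9:42251595-42264256), sterol desaturase, fell from 125 ± 4.24 to 103 ± 1.12 (limma, log2 fold change -0.27, adjusted p = 9.07e-05), less than the median of -0.35 of its chromosome 9 window. *Dhcr7* (chr7:143823145-143848410), the reductase of a closing step toward cholesterol, fell from 48.2 ± 0.556 to 34.98 ± 2.27 (limma, log2 fold change -0.46, adjusted p = 4.96e-05). *Ebp* (chrX:8185329-8193512), the isomerase that shifts a double bond of the sterol ring, rose from 62.6 ± 1.14 to 73.9 ± 0.946 (limma, log2 fold change 0.24, adjusted p = 1.60e-04).

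The regulators also moved in both directions, 2 of 5 (40%) higher in the DKSFM cells and 3 (60%) lower, beside 35.5% higher and 37.0% lower among all tested genes, each by less than 2-fold. *Srebf1* (chr11:60199089-60222581), which encodes the SREBP better known for fatty acid genes, had 173, 164 and 172 in the KSFM-Ca2+ libraries and 186, 185 and 191 in the DKSFM libraries. Its means were 169.9 ± 5.001 and 188 ± 3.22 (limma, log2 fold change 0.14, adjusted p = 0.00311, standard error 0.03), a small rise without overlap. The adjusted p was 0.0141 without KSFM-Ca2+ replicate 2 and 0.0139 without DKSFM replicate 3, neither of them under the threshold. *Srebf2* (chr15:82147181-82205379), which encodes the SREBP better known for sterol genes, had 100.5, 96.2 and 94.7 in the KSFM-Ca2+ libraries and 87.6, 87.1 and 91.4 in the DKSFM libraries. Its means were 97.1 ± 2.98 and 88.7 ± 2.37 (limma, log2 fold change -0.13, adjusted p = 0.00958, standard error 0.04), and the lines did not overlap. This call was at the edge of the threshold and was lost without KSFM-Ca2+ replicate 1, 2 or 3 (adjusted p = 0.0365, 0.0246 and 0.0104 in limma) and without DKSFM replicate 1 or 2 (adjusted p = 0.0525 and 0.0382 in limma). Both *Srebf* genes were well covered, near the level of many of the enzymes.

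*Scap* (chr9:110333288-110384950), the escort of the SREBPs, had 105, 104 and 104 in the KSFM-Ca2+ libraries and 142, 139 and 148 in the DKSFM libraries. Its means were 104 ± 0.401 and 143 ± 4.69 (limma, log2 fold change 0.46, adjusted p = 3.12e-06, standard error 0.03), the largest rise among the 5 regulators, with every DKSFM library above every KSFM-Ca2+ library. *Insig1* (chr5:28071363-28078662), which retains Scap in the endoplasmic reticulum and is itself an SREBP target, had 84.2, 85.1 and 83.4 in the KSFM-Ca2+ libraries and 67.3, 58.2 and 66.1 in the DKSFM libraries. Its means were 84.2 ± 0.826 and 63.9 ± 4.93 (limma, log2 fold change -0.40, adjusted p = 1.94e-04, standard error 0.06), so that it fell without overlap, while its chromosome 5 window had a median of 0.13. *Insig2* (chr1:121304353-121332589), its paralog, differed the other way, with 146 ± 6.66 in the KSFM-Ca2+ libraries and 196 ± 16.7 in the DKSFM libraries (limma, log2 fold change 0.42, adjusted p = 3.36e-04). *Stard4* (chr18:33199355-33213862), a carrier of cholesterol between membranes, had 119.98, 124 and 117 in the KSFM-Ca2+ libraries and 66.8, 63.7 and 66.3 in the DKSFM libraries. Its means were 120.2 ± 3.35 and 65.6 ± 1.67 (limma, log2 fold change -0.87, adjusted p = 1.32e-07, standard error 0.04), the largest fall among the regulators and carriers. *Mbtps1* (chr8:119508156-119558735), the protease that makes the opening cut in SREBPs, fell from 125 ± 2.61 to 100.05 ± 3.79 (limma, log2 fold change -0.32, adjusted p = 5.73e-05). *Erlin1* (chr19:44034944-44069785), a membrane protein that binds the SREBP complex, fell from 156 ± 3.58 to 122 ± 9.51 (limma, log2 fold change -0.36, adjusted p = 3.06e-04).

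In the fatty acid branch *Acly* and *Fasn* were modestly lower in the DKSFM cells, *Acaca* did not pass, and the desaturase genes *Fads1* and *Fads2* had the largest falls. *Acly* (chr11:100476353-100528000), which makes cytosolic acetyl-CoA from citrate for both branches, had 333, 341 and 341 in the KSFM-Ca2+ libraries and 247, 247 and 251 in the DKSFM libraries. Its means were 338 ± 4.84 and 248 ± 2.38 (limma, log2 fold change -0.45, adjusted p = 8.32e-07, standard error 0.03), a fall without overlap. *Acaca* (chr11:84129672-84401651), which carboxylates acetyl-CoA, had the lowest coverage of the branch, with 9.92, 9.27 and 9.52 in the KSFM-Ca2+ libraries and 8.24, 8.36 and 9.52 in the DKSFM libraries. Its lines overlapped and it did not pass the threshold (limma, log2 fold change -0.14, adjusted p = 0.129). *Fasn* (chr11:120805846-120824547), fatty acid synthase, had 59.8, 57.5 and 56.5 in the KSFM-Ca2+ libraries and 45.6, 41.9 and 48.5 in the DKSFM libraries. Its means were 57.95 ± 1.68 and 45.4 ± 3.31 (limma, log2 fold change -0.36, adjusted p = 4.64e-04, standard error 0.06), so that it fell, with every KSFM-Ca2+ library above every DKSFM library, while its chromosome 11 window had a median of 0.13. *Elovl6* (chr3:129532355-129638495), which elongates saturated chains, was the gene of the branch that rose, with 14.2, 14.3 and 15.3 in the KSFM-Ca2+ libraries and 18.3, 17.6 and 19.4 in the DKSFM libraries. Its means were 14.6 ± 0.641 and 18.4 ± 0.864 (limma, log2 fold change 0.33, adjusted p = 8.83e-04, standard error 0.06), and the tested genes of its window had a median of 0.21.

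All 4 desaturases had less coverage in the DKSFM cells, where 37.0% of all tested genes were lower, with a median log2 fold change of -0.75, and in the same direction under each scaling tried, though *Scd2* did not pass the threshold with quantile normalization (adjusted p = 0.0748 in limma). *Fads1* (chr19:10182888-10196877) and *Fads2* (chr19:10062765-10101746), neighbours on chromosome 19, encode the desaturases of polyunsaturated fatty acids. *Fads1* had 128, 122 and 127 in the KSFM-Ca2+ libraries and 50.5, 47.8 and 50.6 in the DKSFM libraries. Its means were 126 ± 3.37 and 49.6 ± 1.61, a 2.53-fold lower value in the DKSFM cells and the largest fall of the 31 genes (limma, log2 fold change -1.34, adjusted p = 2.01e-08, standard error 0.04). *Fads2* had 215, 206 and 206 in the KSFM-Ca2+ libraries and 117, 102 and 113 in the DKSFM libraries. Its means were 209 ± 5.39 and 110.4 ± 7.75 (limma, log2 fold change -0.92, adjusted p = 8.13e-07, standard error 0.05). Both fell without overlap, beside a median of -0.05 over the 223 tested genes of their shared window. *Scd1* (chr19:44394455-44407879) and *Scd2* (chr19:44293674-44306864) encode stearoyl-CoA desaturases, which make monounsaturated fatty acids. *Scd1* had 59.9, 59.5 and 60.2 in the KSFM-Ca2+ libraries and 39.2, 39.7 and 41.2 in the DKSFM libraries, with means of 59.9 ± 0.337 and 40.02 ± 1.02 (limma, log2 fold change -0.58, adjusted p = 1.25e-06, standard error 0.03). *Scd2*, the most abundant of the 31 genes, had 674, 674 and 656 in the KSFM-Ca2+ libraries and 601, 566 and 625 in the DKSFM libraries. Its means were 668 ± 10.1 and 597 ± 29.8 (limma, log2 fold change -0.16, adjusted p = 0.00453, standard error 0.04). The *Scd1* fall was larger than that of *Scd2*, whose coverage was far above that of *Scd1* in both lines. The *Scd2* call was lost without KSFM-Ca2+ replicate 1 or 2 (adjusted p = 0.0184 and 0.0185 in limma) and without DKSFM replicate 1 or 2 (adjusted p = 0.0235 and 0.0121 in limma). *Scd1* and *Scd2* are close paralogs, and how reads matching both were assigned was not given in the sources used here, which makes their split less certain.

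Genes that move, store or export sterols differed in both directions. Of 16 such genes 13 were tested, 5 were higher in the DKSFM cells, 5 were lower and 3 did not pass (*Npc1*, *Npc2* and *Osbp*), with a median of -0.03. The shares, 38.5% higher and 38.5% lower, were close to the 35.5% and 37.0% of all tested genes and so say nothing about these genes. The counts include *Abca1* and *Ch25h*, each of which passed the filter through 1 line alone and drops out with the filter on every library, so no fold change or p-value is given for either. *Abca1* (chr4:53030787-53159895) and *Abcg1* (chr17:31057675-31117988) encode cholesterol exporters, and *Mylip* (chr13:45389742-45412022) a ubiquitin ligase that degrades lipoprotein receptors, and all 3 are textbook targets of the liver X receptors. *Abca1* was listed at 0.1, 0.1 and 0.1 in the KSFM-Ca2+ libraries and at 8.8, 10.4 and 8.5 in those of DKSFM, without normalization. The KSFM-Ca2+ values sit on the 0.1 step of the files. *Abcg1* had 1.23, 1.20 and 1.19 in the KSFM-Ca2+ libraries and 19.1, 21.1 and 18.2 in the DKSFM libraries (limma, log2 fold change 3.90, adjusted p = 6.44e-09). *Mylip* had 3.07, 3.59 and 2.74 in the KSFM-Ca2+ libraries and 41.4, 40.5 and 38.6 in the DKSFM libraries (limma, log2 fold change 3.65, adjusted p = 1.55e-08). These 3 genes were named for the size of their differences, so the direction they share is only a description. *Soat1* (chr1:156424525-156474331), which esterifies cholesterol for storage, differed the other way, with 4.61, 5.29 and 5.12 in the KSFM-Ca2+ libraries and 1.28, 1.11 and 1.18 in the DKSFM libraries (limma, log2 fold change -1.98, adjusted p = 1.04e-06). Further genes past 2-fold, named after their values were seen, were *Nr1h2* (log2 fold change 1.03), which encodes a liver X receptor, and *Lipa* (log2 fold change -1.40), the acid lipase of lysosomes. *Ch25h*, which makes an oxysterol, was listed at 2.5, 1.9 and 2.1 in the KSFM-Ca2+ libraries and at 0.2, 0.1 and 0.2 in those of DKSFM, close to the step of the files.

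Of further genes of fatty acid and glycerolipid synthesis, 22 of 25 were tested, 6 were higher in the DKSFM cells, 11 were lower and 5 did not pass (27.3% higher and 50% lower, beside 35.5% and 37.0% of all tested genes), with a median of -0.10. The lower count was 9 with the replicate block and with some single libraries left out. *Elovl5* (chr9:77917364-77984519), the elongase that lengthens polyunsaturated chains, had 85.03 ± 2.77 in the KSFM-Ca2+ libraries and 37.02 ± 2.17 in the DKSFM libraries (limma, log2 fold change -1.20, adjusted p = 1.65e-07). *Agpat2* (chr2:26593057-26604417), an acyltransferase of phospholipid and triglyceride synthesis, had 39.4 ± 3.13 in the KSFM-Ca2+ libraries and 17.9 ± 0.703 in the DKSFM libraries (limma, log2 fold change -1.13, adjusted p = 9.18e-07). *Acsl4* (chrX:142317993-142390535), which activates polyunsaturated fatty acids, had 114 ± 3.06 in the KSFM-Ca2+ libraries and 56.1 ± 0.472 in the DKSFM libraries (limma, log2 fold change -1.02, adjusted p = 3.94e-08). These 3 genes fell past 2-fold, *Acsl4* at the edge of it, with a log2 fold change of -0.977 with quantile normalization. *Mid1ip1* (chrX:10715013-10719690), whose product stimulates acetyl-CoA carboxylase, fell by less, with 383 ± 11.8 in the KSFM-Ca2+ libraries and 202 ± 4.006 in the DKSFM libraries (limma, log2 fold change -0.92, adjusted p = 6.03e-08). Of genes of fatty acid oxidation, the reverse of synthesis, 16 of 17 were tested, 12 (75.0%) were higher in the DKSFM cells, 2 (12.5%) were lower (*Acads* and *Echs1*) and 2 did not pass (*Acadl* and *Etfa*), beside 35.5% higher and 37.0% lower among all tested genes, with a median of 0.38, and the lists were not tested against each other. *Acadm* (chr3:153922357-153944632), a dehydrogenase of medium chains, had 18.2, 15.2 and 15.8 in the KSFM-Ca2+ libraries and 56.2, 57.3 and 51.1 in the DKSFM libraries (limma, log2 fold change 1.74, adjusted p = 2.18e-07). *Acaa2* (chr18:74779197-74806208), the thiolase, had 54.7 ± 2.20 in the KSFM-Ca2+ libraries and 122 ± 1.87 in the DKSFM libraries (limma, log2 fold change 1.16, adjusted p = 4.30e-08). *Cpt1a* (chr19:3322334-3385733), which admits fatty acids to mitochondria, had 23.2 ± 1.97 in the KSFM-Ca2+ libraries and 45.8 ± 1.22 in the DKSFM libraries (limma, log2 fold change 0.98, adjusted p = 2.02e-06). All 3 rose without overlap, the dehydrogenase and the thiolase past 2-fold. *Echs1* (chr7:140105710-140116476), a hydratase of the same cycle, fell from 209 ± 3.99 to 146 ± 2.73 (limma, log2 fold change -0.52, adjusted p = 8.15e-07). The plot of sterol reductases, sterol transport and oxidation genes sets these differences beside each other.

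**Figure D5:**
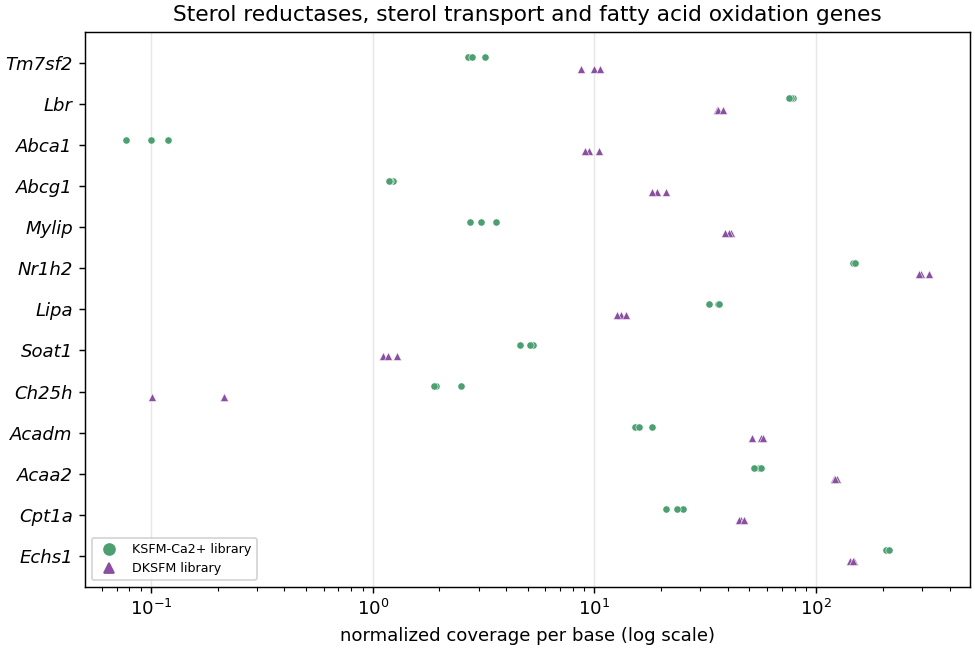
Normalized coverage per base (log scale) of sterol reductase, sterol transport and fatty acid oxidation genes in each library, with KSFM-Ca2+ as circles and DKSFM as triangles. *Tm7sf2* and *Lbr* differ in opposite directions, and *Abca1*, *Abcg1* and *Mylip* are higher in every DKSFM library.

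Some members overlap other genes in the annotation. *Fdft1* and *Ctsb*, *Cyp51* and *Akap9*, and *Srebf1* and *Rai1* share bases on opposite strands, 774, 166 and 109 of them. *Acaca* shares 19126 bases with *Gm11437* and *Lss* 11268 bases with *4930483K19Rik*, also on opposite strands, and neither of these others passed the filter. *Fdps* shares 7512 bases with *Gm43738* on the same strand, and *Mvd* 9822 bases with *Gm20388* on the opposite strand. Both of these others are annotated as protein coding and were not listed in the libraries. Further overlaps are not named here. On the same strand *Scd2* shares 61 bases with *Mir5114*, which was listed apart with a mean coverage of 447 in the KSFM-Ca2+ cells and 322.5 in the DKSFM cells, so the coverage of both is less certain. The libraries were directional and the authors aligned reads with a strand setting, but whether the deposited coverage was computed by strand was not given in the sources used here. Positions are those of GENCODE M21 on GRCm38, the build called mm10.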

How the data were processed

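Directional poly(A) RNA libraries were sequenced as single reads, which the authors aligned with STAR to mm10, using RefSeq genes. Salmon was used for quantification, and the lines had been compared in the authors' DESeq2 analysis. The submitters' processing notes also name bcl2fastq. The values used here are the signal deposited by the authors, read coverage per base for each gene in 6 libraries, and how coverage was computed was not given in the sources used here. Groups and replicate numbers came from the sample labels. The members and lists were chosen with earlier results of these data known. Scaling used the trimmed mean of M values without weights (trims of 30% of M and 5% of A values, factors from 0.991 to 1.01). A gene was tested where 3 or more libraries reached a normalized coverage of 0.5. A count model had been planned, but coverage is not a count, so limma was fitted to log2(normalized coverage + 0.1) with an intensity trend and no covariate. P-values were adjusted over all tested genes by Benjamini and Hochberg's method (Benjamini-Hochberg), with thresholds of 0.01 and 2-fold. The procedure was tested on simulated data. As counts were not used, intervals for counting error are not given, and the 0.1 step limits low values.

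Genes given in full were the members past 2-fold and *Srebf1*, *Srebf2*, *Insig1*, *Scap*, *Fasn* and *Sqle*, and the other members were accounted for by count, range and mean. From each list of other pathway genes, up to 4 called genes with the largest log2 fold change were named, provided that the higher line had a mean of 5 or more. Full values of other members, and the promoters shown, were chosen after values were seen. Lists held 80 other pathway genes and markers of keratinocytes, sebocytes, adipocytes, fibroblasts, melanocytes, endothelial and immune cells. Some of the other pathway genes, and the counts of their lists, are not reported here. Alternatives were other scalings (relative log expression, library totals, quantile), the filter dropped or applied to every library, a pseudocount of 0.5 or 1, no trend, a replicate block, an adjusted p of 0.05, each library left out, and the combined libraries only. Fits were made with limma 3.58.1 in R 4.3.3, and figures with matplotlib 3.10.9 in Python 3.11.15. Positions came from GENCODE M21 and promoters from RefSeq (GRCm38.p6).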

Additional observations from a re-analysis of the deposited data

How the results depend on the processing

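Of the 31 members, 22 kept direction and call in all 16 alternatives. Calls were lost for *Srebf2* in 11, *Scd2* in 7, *Srebf1* in 4 and *Cyp51*, *Fasn* and *Elovl6* in 1 each. The median of the sterol branch, -0.12 as reported, was -0.0616 with quantile normalization and -0.168 with the combined libraries only, and from -0.145 to -0.0932 with 1 library left out. That of the fatty acid branch ran from -0.431 to -0.367 with 1 library left out. A filter on every library left 1032 genes 2-fold higher in the DKSFM cells, against 1651, as fewer genes were tested. With the combined libraries only, a lone KSFM-Ca2+ library was assumed to vary like the others, and genes called lower numbered 2 on the sterol uptake list and 1 on the fatty acid oxidation list. Among genes that did not pass the threshold, direction reversed with quantile normalization for *Fdps* (0.00563) and *Nsdhl* (0.0167). With 1 library left out *Nsdhl* ran from -0.0766 to 0.00847 and *Mvk* from -0.0218 to 0.0906. Where no fewer samples or genes were used, the cause was not tested. Replicate numbers shared no deviations (correlations of -0.00864, 0.0227 and -0.0204 across genes), and with the replicate block *Srebf2* lost its call (adjusted p = 0.0216 in limma), the 1 member that did. The 0.1 step of the files and 3 libraries a line limit small differences of low genes.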

Other observations

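Farnesyl diphosphate also feeds the isoprenoid branches that make ubiquinone and dolichol and attach lipid anchors to proteins. Of the 12 genes on this list, all tested, 4 were higher in the DKSFM cells, 7 were lower and 1 (*Pdss2*) did not pass (33.3% higher and 58.3% lower, beside 35.5% and 37.0% of all tested genes), with a median log2 fold change of -0.22. *Fntb* (chr12:76765589-76921412), the beta subunit of farnesyltransferase, had a normalized coverage of 24.98, 22.5 and 24.2 in the KSFM-Ca2+ libraries and 49.7, 52.4 and 50.2 in the DKSFM libraries (limma, log2 fold change 1.09, adjusted p = 2.55e-07). *Pggt1b* (chr18:46235351-46280993), the beta subunit of the related transferase for the geranylgeranyl group, which shares its alpha subunit, had 21.3, 21.2 and 18.3 in the KSFM-Ca2+ libraries and 11.9, 11.6 and 11.3 in the DKSFM libraries (limma, log2 fold change -0.80, adjusted p = 1.28e-05). The subunits that set the choice of lipid anchor thus differed in opposite directions, and *Fnta*, which encodes their shared alpha subunit, was named after its values were seen and had 78.03 ± 4.28 in the KSFM-Ca2+ libraries and 67.1 ± 1.03 in the DKSFM libraries (limma, log2 fold change -0.22, adjusted p = 0.00210). *Rabggtb* (chr3:153907287-153913009), the beta subunit of the transferase for Rab proteins, rose from 366 ± 13.4 to 584 ± 39.3 (limma, log2 fold change 0.67, adjusted p = 5.06e-06). *Rabggta*, the alpha subunit of the same transferase, was named after its values were seen and differed the other way, from 80.8 ± 4.22 to 55.4 ± 3.25 (limma, log2 fold change -0.55, adjusted p = 2.71e-05). *Pdss1* (chr2:22895522-22940266), which makes the side chain of ubiquinone, fell from 17.9 ± 0.626 to 8.67 ± 0.00623 (limma, log2 fold change -1.03, adjusted p = 5.68e-07). Coverage is of messenger RNA, and neither lipids nor enzyme activity were measured in these libraries.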
